A study of Homo sapiens with 3 samples.

Results

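The HOX gene clusters A, B, C and D were examined as binding regions of Myc-tagged Idax in HEK293T chromatin. Each cluster was taken as a fixed window on hg19. The windows were chr7:27130000-27250000 for HOXA, chr17:46604000-46807000 for HOXB, chr12:54330000-54452000 for HOXC and chr2:176955000-177057000 for HOXD. Every peak that shared at least 1 bp with a window was counted as a member. The rule used position alone and no measured value. In the list for wild-type Idax 73 of 17089 peaks were members (0.427%), and in the list for the DNA-binding mutant 0 of 38 were.

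HEK293T is an established human embryonic kidney line that expresses the SV40 large T antigen. The groups were stable HEK293T lines made by transfection with wild-type Myc-Idax, with Myc-IdaxDBM (the mutant of its DNA-binding part) or with an empty vector, and all were precipitated with the same agarose-bound antibody to c-Myc. The series states 2 replicates per condition, whereas 1 peak list each was analysed for wild type and mutant, both called over the empty-vector line, so no value below has a replicate error and no condition was tested against another. Whether a line was 1 clone, how much tagged protein it made and how many reads lie behind a peak are not given in the sources used here, and intervals below cover counting error only.

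Idax, encoded by CXXC4, carries a CXXC zinc finger, a domain known for binding CpG dinucleotides that are not methylated. HOX genes encode homeodomain transcription factors that set position along the body axis. They lie in 4 clusters in which genes of the same number (a paralogue group) descend from a common ancestor, and the order along the chromosome follows the order of their expression domains, low numbers towards the head and high numbers towards the tail. The clusters are known for their many CpG islands, and in cells that do not use them they are classic targets of Polycomb repression. Because the numbers give every cluster a shared direction, positions below are counted from its low-number end to its group 13 end.

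In the RefSeq gene table all 38 listed genes were found on the chromosomes of the windows. From the low-number end the listed order was HOXA2, HOXA3, HOXA4, HOXA5, HOXA6, HOXA7, HOXA9, HOXA10, HOXA11 and HOXA13 on chromosome 7. On chromosome 17 it was HOXB1 to HOXB9 without a break in the numbers, followed by HOXB13. On chromosome 12 it ran from HOXC4, HOXC5 and HOXC6 through HOXC8, HOXC9, HOXC10, HOXC11 and HOXC12 to HOXC13. On chromosome 2 it ran from HOXD1, HOXD3 and HOXD4 through HOXD8, HOXD9, HOXD10, HOXD11 and HOXD12 to HOXD13. The table is of another assembly (GRCh38.p14), so it gave names and order only, and no peak was assigned to a gene.

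Promoter sequences show what a CpG-binding domain could meet in these clusters. The ones below have the most and the fewest CG of their cluster in the RefSeq promoter table, from GRCh38.p14, and each is the 250 bases before a transcription start, written 5′ to 3′ on the strand of the gene with every CG in capitals. They lie at chr7:27200092-27200341 (minus strand) for HOXA13, chr7:27119596-27119845 (minus) for 1 of 7 listed starts of HOXA3, chr17:48531012-48531261 (minus) for HOXB1, chr12:54016638-54016887 (plus) for HOXC4, chr2:176188418-176188667 (plus) for HOXD1 and chr2:176151300-176151549 (plus) for HOXD4. These positions cannot be set against the hg19 positions of the peaks. HOXB1 was the one HOXB gene with a sequence, and HOXC5 has the same listed start as HOXC4.

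HOXA13: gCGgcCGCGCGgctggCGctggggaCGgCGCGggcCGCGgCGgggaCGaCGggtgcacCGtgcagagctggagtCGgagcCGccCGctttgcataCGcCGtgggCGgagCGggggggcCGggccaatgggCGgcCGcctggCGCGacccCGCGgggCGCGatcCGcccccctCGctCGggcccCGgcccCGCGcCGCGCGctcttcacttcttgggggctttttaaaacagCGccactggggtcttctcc
HOXA3: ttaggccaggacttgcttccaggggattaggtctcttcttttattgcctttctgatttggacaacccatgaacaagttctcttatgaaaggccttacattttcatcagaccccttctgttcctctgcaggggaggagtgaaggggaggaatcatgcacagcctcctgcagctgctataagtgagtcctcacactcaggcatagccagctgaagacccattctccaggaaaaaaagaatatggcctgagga
HOXB1: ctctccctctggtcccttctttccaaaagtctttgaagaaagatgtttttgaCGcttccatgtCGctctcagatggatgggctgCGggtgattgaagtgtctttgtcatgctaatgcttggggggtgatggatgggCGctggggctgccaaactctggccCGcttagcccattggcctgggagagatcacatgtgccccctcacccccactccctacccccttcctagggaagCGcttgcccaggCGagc
HOXC4: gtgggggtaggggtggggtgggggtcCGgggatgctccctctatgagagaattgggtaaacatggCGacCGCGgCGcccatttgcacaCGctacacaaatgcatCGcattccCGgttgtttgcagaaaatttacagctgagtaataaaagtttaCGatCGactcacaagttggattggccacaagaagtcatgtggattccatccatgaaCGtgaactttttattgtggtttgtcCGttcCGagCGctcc
HOXD1: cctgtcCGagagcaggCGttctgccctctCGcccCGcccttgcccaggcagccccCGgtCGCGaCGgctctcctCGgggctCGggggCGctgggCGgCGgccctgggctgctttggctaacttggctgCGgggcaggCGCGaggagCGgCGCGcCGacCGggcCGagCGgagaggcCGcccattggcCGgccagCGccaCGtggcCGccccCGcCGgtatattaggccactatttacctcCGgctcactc
HOXD4: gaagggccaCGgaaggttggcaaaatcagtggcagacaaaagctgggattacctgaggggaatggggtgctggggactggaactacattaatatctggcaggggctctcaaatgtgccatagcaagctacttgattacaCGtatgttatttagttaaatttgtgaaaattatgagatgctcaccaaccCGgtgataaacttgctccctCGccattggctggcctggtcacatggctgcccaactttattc

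The printed stretch of HOXA13, the most distal HOXA gene in the body plan, holds 40 CG, and that of HOXD1 holds 31. Those of HOXC4, HOXB1 and HOXD4 hold 14, 7 and 4, and the HOXA3 stretch holds 0. CG-rich and CG-poor starts thus lie together in HOXA and in HOXD, while HOXB and HOXC had too few sequences to tell.

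CG content was counted over 300 bases (250 before the start and 50 after), as the observed number of CG over the number expected from the C and G of the same sequence. CG reads the same on both strands. Of the 38 genes, 20 had a sequence, with 27 starts between them, 16 in HOXA and 8 in HOXD. The start shared by HOXC4 and HOXC5 was counted once for each gene. At 22 of the 27 starts (81.5%) the ratio was at least 0.6, against 48.9% of the 35116 promoters in the table. The median ratio was 0.85 over the HOX starts and 0.58 over all promoters, and the median number of CG was 22 against 14. No sequence was counted for HOXA5, HOXB2 to HOXB9, HOXB13, HOXC6, HOXC8 to HOXC13 or HOXD9.

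Among HOXA genes, HOXA9 had the highest ratio (1.27, with 22 CG), and HOXA13 had the most CG (44, ratio 1.01). HOXA3 spanned the widest range, from 0.00 to 1.05 over its 7 starts, and 3 of these fell below the threshold. HOXB1 (0.44, 11 CG) and HOXD4 (0.24, 4 CG) also fell below it. HOXD13 lay at the threshold (0.60, 24 CG), and the other 6 HOXD genes with a sequence had ratios between 0.86 and 0.99. These counts describe reference sequence, and methylation was not measured here.

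**Figure D1:**
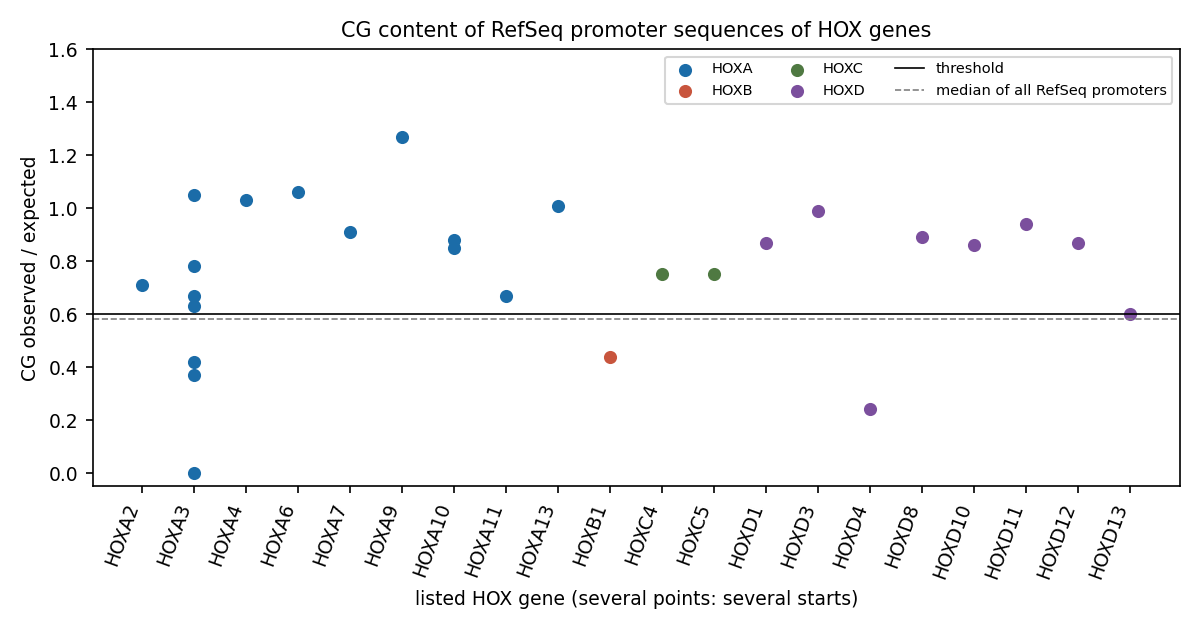
CG content of RefSeq promoter sequences (GRCh38.p14) of 20 HOX genes, as observed over expected CG in 300 bases on the vertical axis, 1 point per listed start. The solid line is the threshold of 0.6 and the dashed line the median of all promoters (0.58). The points below the threshold are 3 starts of HOXA3, HOXB1 and HOXD4.

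Wild-type Idax peaks were dense over all 4 clusters, and densest over HOXA. Together the windows measured 547 kb, of which peaks covered 130 kb or 23.8%. Over the chromosome spans as a whole 0.707% of bases lay inside a wild-type peak, so the windows were covered 33.7 times as much. They held 13.3 peaks per 100 kb (73 peaks, exact Poisson 95% interval 57.2 to 91.8), against 0.570 per 100 kb over all spans.

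Peaks covered 45.0% of HOXA (53.9 kb), 19.1% of HOXB (38.9 kb), 18.2% of HOXC (22.2 kb) and 15.0% of HOXD (15.3 kb). HOXA was thus covered 2.35 times as much as HOXB, 2.47 times as much as HOXC and 3.0 times as much as HOXD. The share of HOXB depends on its window, which at 203 kb was the longest and included a stretch of 70.3 kb without a peak. HOXB, HOXC and HOXD lay within 1.28 times of each other. The number of peaks differed less than the cover. HOXA had 19.2 peaks per 100 kb (23 peaks, 95% interval 12.1 to 28.8 per 100 kb), HOXB 11.3 (23 peaks, 7.18 to 17.0), HOXC 12.3 (15 peaks, 6.88 to 20.3) and HOXD 11.8 (12 peaks, 6.08 to 20.6). These intervals overlap between all clusters. Joining peaks less than 1 kb apart left 14 in HOXA, 19 in HOXB, 11 in HOXC and 9 in HOXD.

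**Figure D2:**
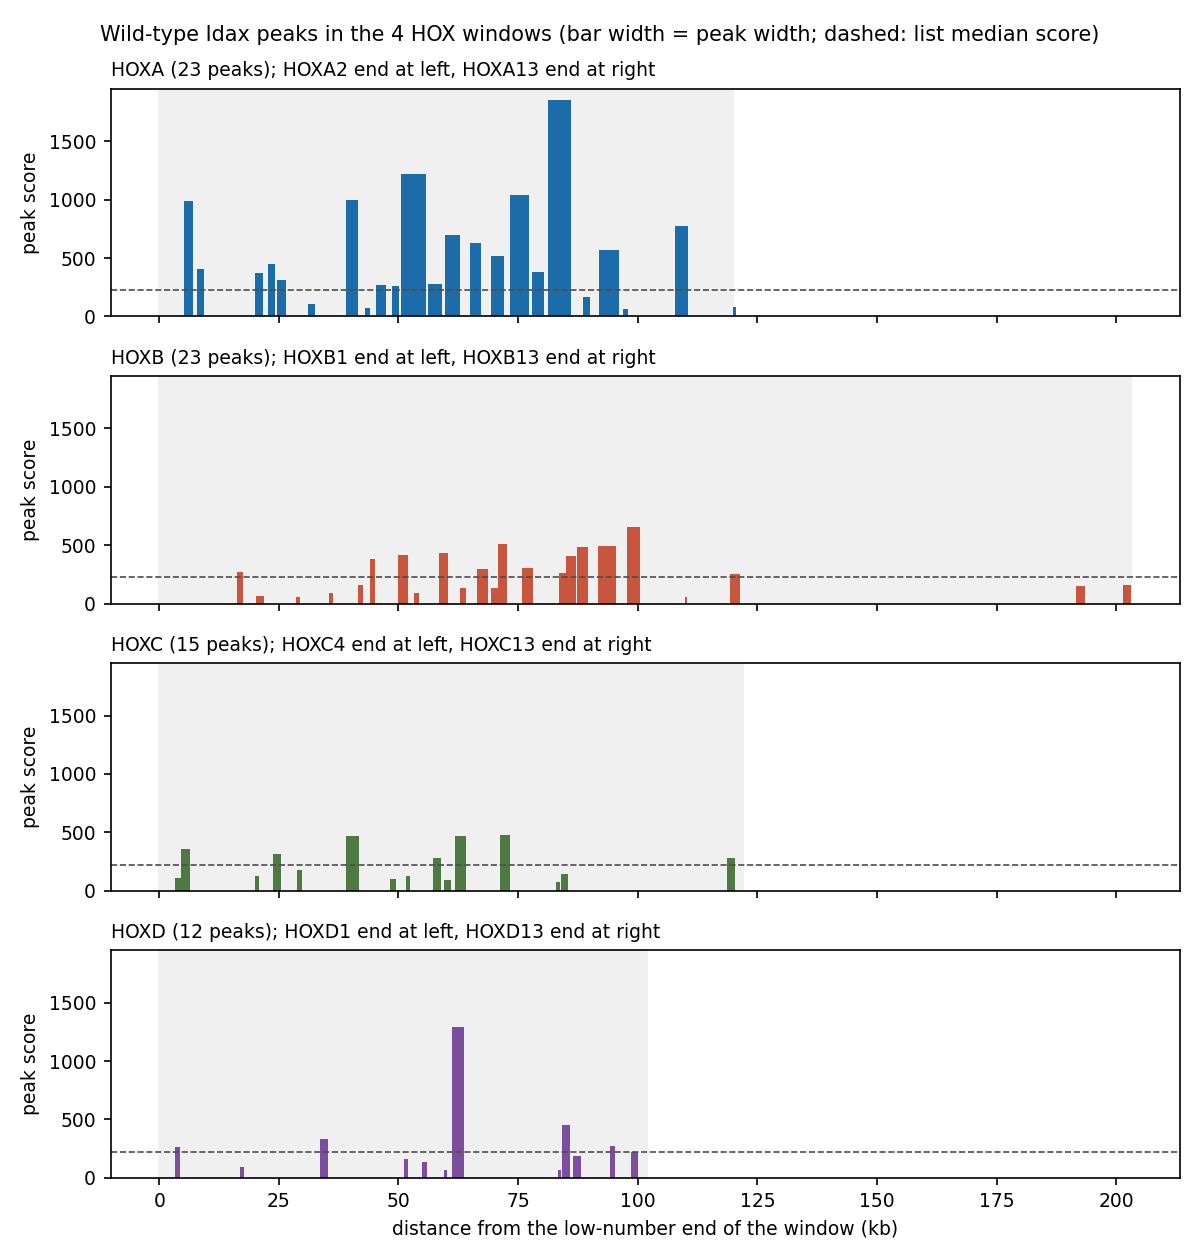
Wild-type Idax peaks along each HOX window, from the low-number end at 0 kb to the group 13 end (horizontal axis, kb; grey background, window). Bar width is peak width, bar height the authors' score of the peak, and the dashed line the median score of the whole list (223). HOXA has its widest and highest peaks between 50 and 100 kb, where HOXB has most of its peaks. In HOXD 1 peak stands far above the rest.

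In HOXA the peaks formed a dense block through the middle of the cluster, with short gaps between them. Of 12 steps of 10 kb, 7 were more than 50% covered and 0 were without cover. The highest was the step from 50 to 60 kb (27180000 to 27189999), which was 86.9% covered, followed by 70 to 80 kb with 81.9%. Cover was low at 10 to 20 kb (0.590%) and at the end next to HOXA13 (6.40% at 110 to 120 kb).

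The strongest HOXA peak, at 27211304 to 27216005, scored 1854.39 over 4702 bp and ranked number 21 by score and number 22 by width among all 17089 wild-type peaks. The next by score, at 27180547 to 27185727, scored 1221.13 and was the widest of any HOX peak at 5181 bp, number 16 in the list by width. Another, at 27203305 to 27207323, scored 1039.05 over 4019 bp. All 3 lay between 50 and 90 kb from the low-number end, that is, in the densest block. The peak nearest the low-number end, with its middle 6.04 kb inside the window, was also strong, scoring 985.50 over 1913 bp.

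Weak peaks lay between the strong ones in HOXA. The lowest score, 64.77, belonged to an 887 bp peak at 27227028 to 27227914, 966 bp from the 571.64-scoring peak at its side. The narrowest and last peak (785 bp, score 77.94) lay at 27249831 to 27250615, across the limit of the window. The longest stretch without a peak was 10.7 kb, from 27139278 to 27149940, between peaks that scored 404.03 and 370.52. The gaps between neighbours had a median of 1.31 kb, and 9 of 22 were under 1 kb. Over the whole list the median gap was 52.6 kb.

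In HOXB most peaks lay on the HOXB1 side of the window's middle, and were densest close to the middle. The HOXB1 side held 19 peaks, which covered 32.4% of the sequence, against 4 peaks and 5.89% on the HOXB13 side. Over 4 equal sections from the HOXB1 end, cover was 14.6%, 50.2%, 5.27% and 6.51%, with 6, 13, 2 and 2 peaks. The section at the HOXB1 end was thus much less covered than the next, and its median score was 124 against 411. Of 20 steps of 10 kb inside the window, 7 were without cover, and 6 of them adjoined each other from 130 to 190 kb. The longest stretch without a peak was 70.3 kb, from 46725339 to 46795665, bordered by peaks with scores of 253.81 and 149.74. Cover was highest from 80 to 90 kb (58.7%) and from 90 to 100 kb (58.2%).

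The strongest HOXB peak (46701797 to 46704448, 2652 bp) scored 651.21, number 1579 in the list. It closed the dense part of the cluster, since the next peak towards HOXB13 was the narrowest and weakest of the window (46713793 to 46714378, 586 bp, score 57.77). The second, at 46674891 to 46676698, scored 508.65 over 1808 bp. The third, at 46695755 to 46699369, scored 490.56 and was the widest in HOXB (3615 bp, number 94 in the list by width). The first peak of the cluster, at 46620165 to 46621401, scored 265.98 and the last, which crossed the window limit at 46805486 to 46807125, scored 160.80. Neighbours came as close as 29 bp, between 46688999 and 46689029.

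The strongest HOXC peaks were close to each other in score. The first 3 were at 54378664 to 54380693 (472.57, 2030 bp), at 54387894 to 54390293 (469.91, 2400 bp) and at 54410305 to 54412892 (465.48, 2588 bp, the widest in HOXC). The narrowest, at 54399654 to 54400346, was 693 bp wide with a score of 122.40, and the lowest score, 75.93, was at 54368168 to 54369008. The highest of the 15 HOXC peaks had place 3286 by score among the 17089 of the list.

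Along HOXC, 4 equal sections from the HOXC4 end were covered by 20.7%, 24.4%, 22.1% and 5.54%. The first peak, next to the HOXC4 end, was at 54447548 to 54448704 (score 107.60). The last, at 54331707 to 54333397 (score 280.93), stood alone towards the HOXC13 end, 33.2 kb beyond its neighbour at 54366629 to 54368099 (score 139.93). That interval, 54333398 to 54366628, was the longest without a peak in HOXC. No 10 kb step of HOXC was more than 50% covered, and the highest was 34.5%.

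HOXD, the shortest window (102 kb), had the fewest peaks and the least cover. Its density, 11.8 peaks per 100 kb, was near that of HOXB (11.3). HOXD also held the second strongest peak of all clusters. That peak, at 176993309 to 176995864, scored 1289.36, which was number 134 in the list, and at 2556 bp it was also the widest in HOXD. The next 2 scored 448.40 (176971078 to 176972834, 1757 bp) and 333.53 (177021717 to 177023302, 1586 bp). The strong peak bordered the longest stretch without a peak in the cluster, 19.7 kb from 176973579 to 176993308. On the other side of that stretch was the weakest and narrowest HOXD peak, at 176973058 to 176973578 (score 65.43, 521 bp).

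Cover in HOXD lay towards HOXD13. The HOXD13 side of the window held 9 peaks and was 23.1% covered, and the HOXD1 side held 3 peaks and was 6.86% covered. The first peak from the HOXD1 end was at 177052749 to 177053721 (score 261.97), and the last, nearest the HOXD13 end, at 176956855 to 176958459 (score 222.24).

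The clusters thus differed in where cover lay along them. The ratio of covered bases, group 13 side over low-number side of the middle, was 3.37 in HOXD, 1.12 in HOXA, 0.613 in HOXC and 0.182 in HOXB. That of HOXA turned to 0.932 when the dividing point was set between its first and last peak. The windows were drawn by hand around genes, and HOXB has an outlying gene, HOXB13, at its high-number end, so the ratio depends on where a window ends.

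**Figure D3:**
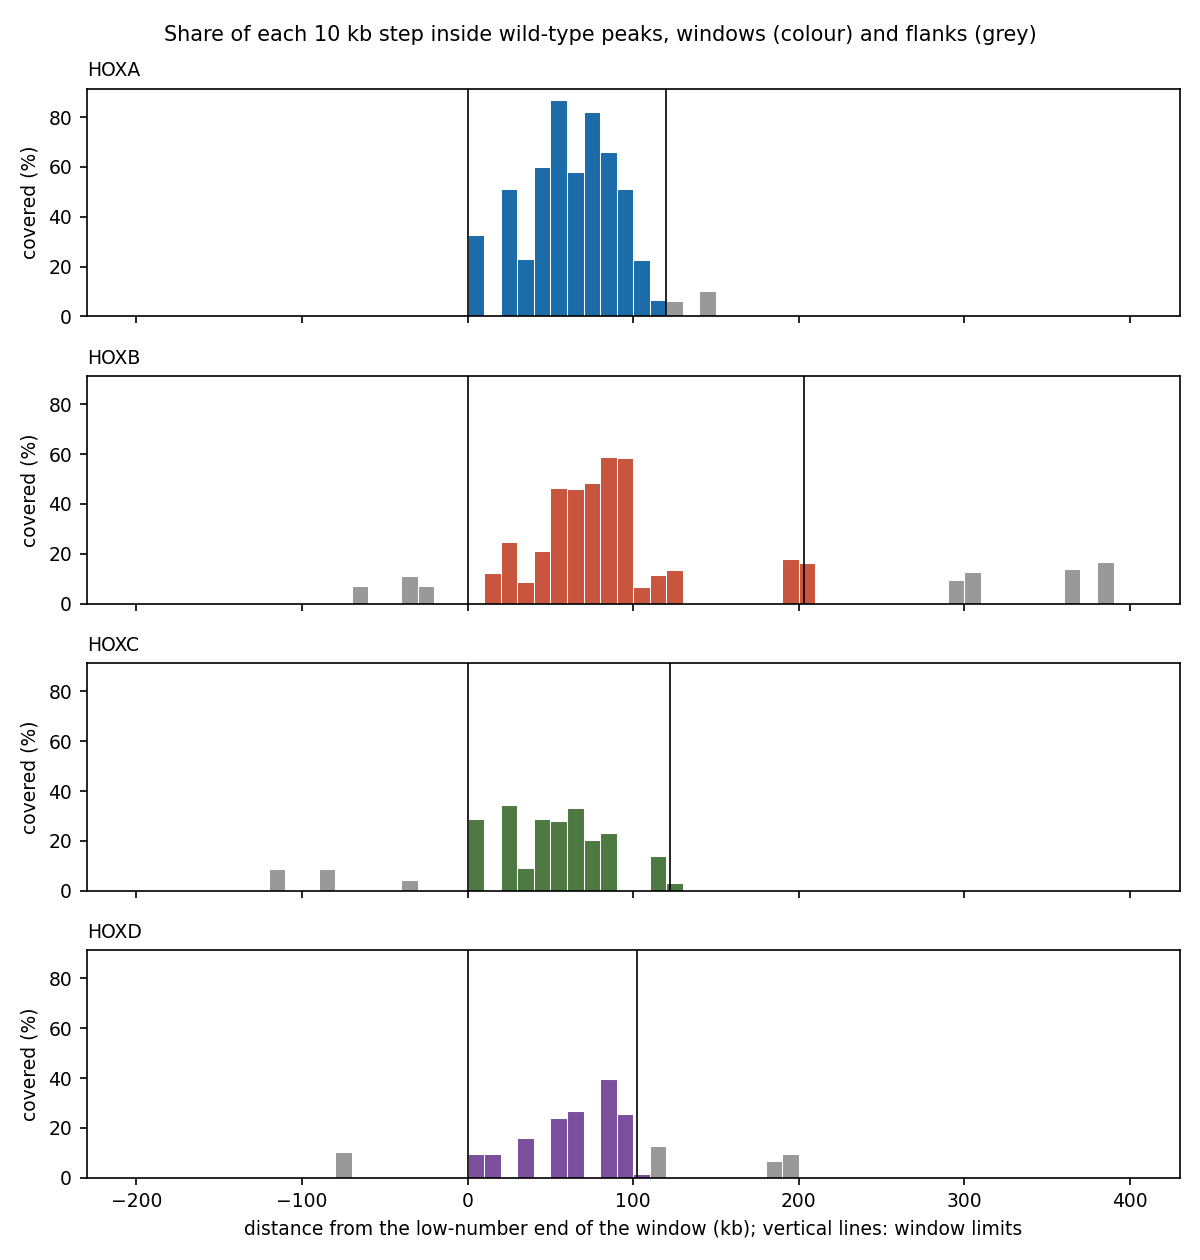
Share of each 10 kb step inside wild-type peaks (vertical axis, %) against distance from the low-number end of each HOX window (horizontal axis, kb). Coloured steps begin inside the window, grey steps lie in flanks as long as the window on each side, and vertical lines mark the window limits. Cover falls to 16.6% or less in every grey step, and peaks at 86.9% in HOXA.

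HOX peaks were wider than the list, mainly in HOXA and HOXB. The upper quartile of width over all wild-type peaks was 1503 bp, and 25.0% of peaks were at least that wide. In the windows 44 of 73 were (60.3%), with 18 of 23 in HOXA, 14 of 23 in HOXB, 7 of 15 in HOXC and 5 of 12 in HOXD. Median width fell in the same order, with 2005 bp in HOXA (785 to 5181), 1640 bp in HOXB (586 to 3615), 1471 bp in HOXC (693 to 2588) and 1084 bp in HOXD (521 to 2556). The median of the list was 1116 bp, so HOXD had a median near that of the list although 41.7% of its peaks were in the wide class. With scores of 100 or more, the HOXD median was 1586 bp and that of the list 1258 bp. Of the 100 widest peaks in the list, 5 lay in the windows.

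Scores stood out less than widths. A score at or above the upper quartile of the list (408) was found in 23 of 73 HOX peaks (31.5%), against 25.0% of all wild-type peaks. HOXA had 11 of 23, HOXB 7 of 23, HOXC 3 of 15 and HOXD 2 of 12. The median score was 404 in HOXA (64.77 to 1854.39), 265 in HOXB (57.77 to 651.21), 203 in HOXD (65.43 to 1289.36) and 178 in HOXC (75.93 to 472.57), beside 223 in the list. With peaks under a score of 100 left out, HOXC (281) and HOXD (262) were still below the list (292). After neighbours less than 1 kb apart were merged, HOXC (281) and HOXD (262) were above the list (241), so their place against it depended on how peaks were divided. Wider HOX peaks had higher scores (Spearman rho 0.84 across 73 peaks of 1 list, 0.77 across the list), as a description of peaks that share a library.

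**Figure D4:**
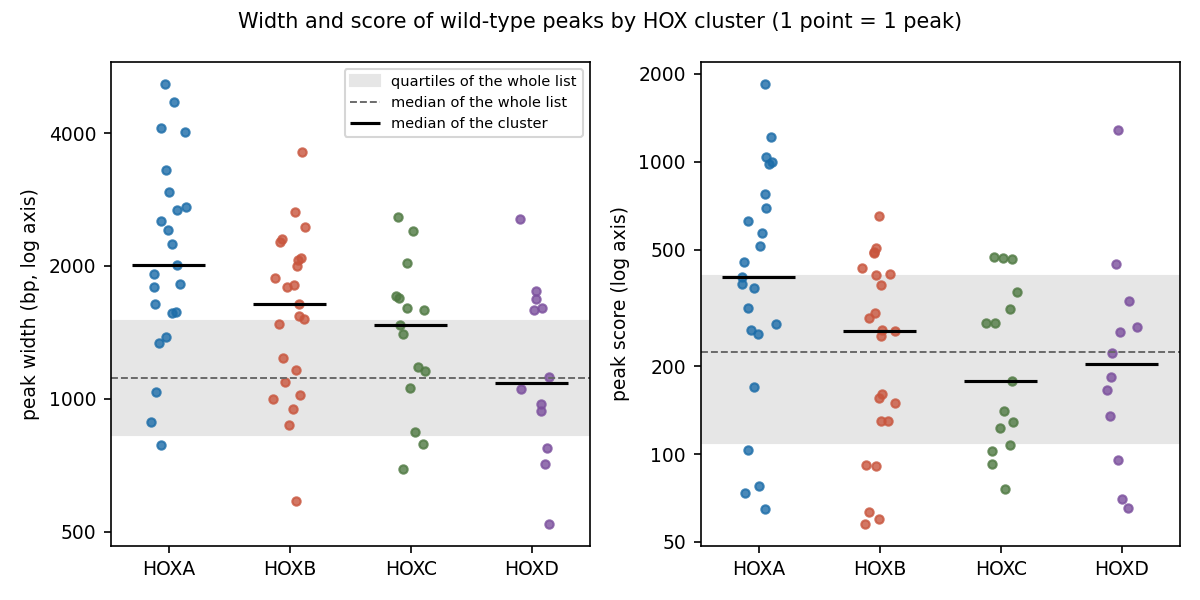
Width (left, bp) and authors' score (right) of the wild-type peaks in each HOX cluster on log axes, 1 point per peak, with the median of the cluster as a black line. The grey band spans the quartiles of the whole list and the dashed line is its median (1116 bp and 223). HOXA stands highest in both, and the medians of HOXC and HOXD lie below the dashed line for score.

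Close neighbours were common inside the windows. Another peak lay less than 1 kb away for 32 of 73 HOX peaks (43.8%), against 14.7% of the list. This held for 14 of 23 peaks in HOXA, 6 of 23 in HOXB, 7 of 15 in HOXC and 5 of 12 in HOXD. The peak caller sets where 1 region of signal is divided into several peaks, so close peaks may be parts of 1 enriched stretch; this was not tested.

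Cover was low beside the windows. Stretches of the window's own length on both sides were 0.679% covered for HOXA, 1.95% for HOXB, 0.888% for HOXC and 1.91% for HOXD. The windows were thus covered 66.2, 9.82, 20.5 and 7.83 times as much as their flanks. With flanks of 50 kb the fold was 27.6 for HOXA and 42.8 for HOXC. With scores of 100 or more it was 102 and 45.8.

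The nearest peaks outside the windows lay between 11.1 and 230 kb from the members, on both sides of the median gap of the list (52.6 kb). The first HOXA peak had no neighbour for 230 kb on its outer side, and from the last HOXA peak the next was 24.2 kb away at 27274790 to 27275804 (score 248.22). Around HOXB the nearest outside peaks were 38.4 and 87.0 kb from the nearest peak of the cluster, and around HOXC 35.4 and 186 kb. HOXD ran on towards its group 13 end, with an outside peak at 176944468 to 176945744 (score 219.56) only 11.1 kb from the last member, whereas on the HOXD1 side the next was 80.1 kb away.

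Few other stretches of the genome were covered as much. Every chromosome span was cut into adjoining tiles of a window's length, without those that touched a HOX window. Of 24945 tiles as long as HOXA, 0 were as covered, and the most covered reached 25.5%. Of 14738 tiles as long as HOXB 0 were as covered (highest 15.5%), of 24535 as long as HOXC 2 were (highest 20.5%), and of 29347 as long as HOXD 8 were (highest 22.6%). In each set of tiles more than 50% held no peak. The windows fit their gene clusters and the tiles fit nothing, which favours the windows, so these counts are a description.

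**Figure D5:**
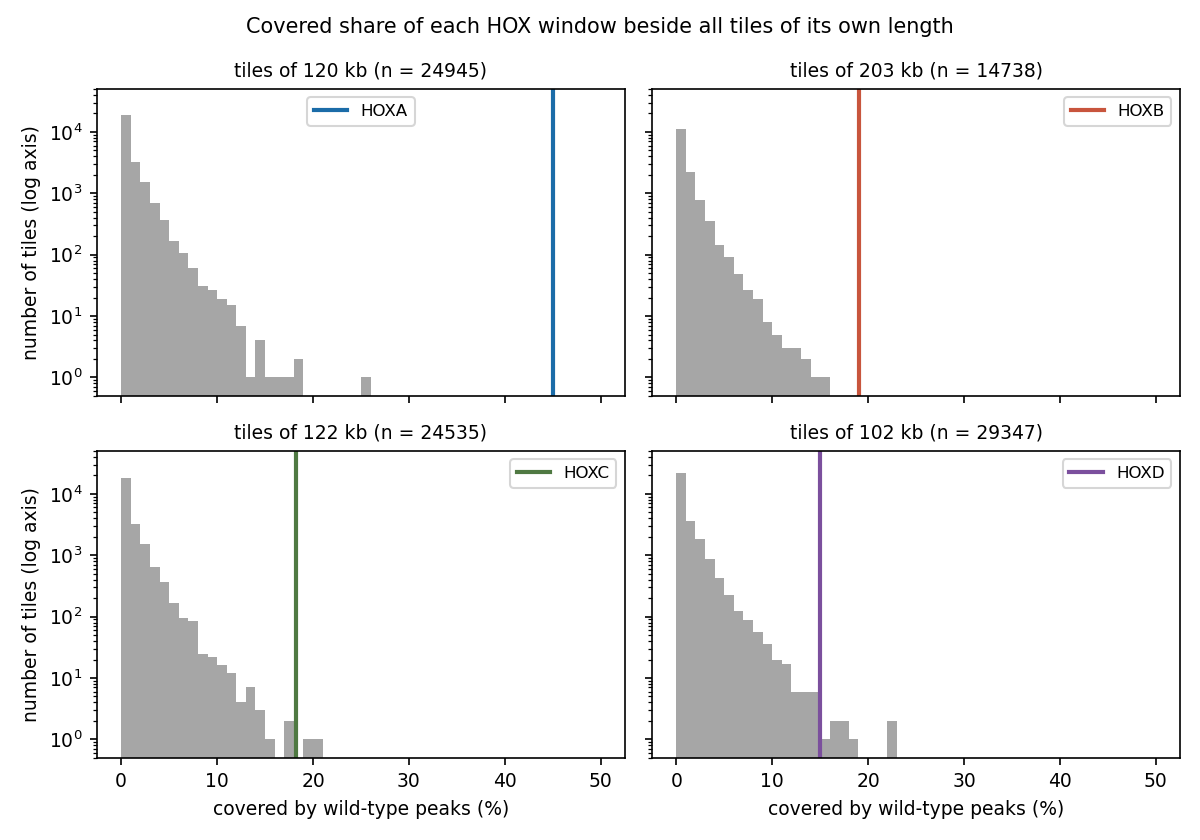
Number of genome tiles (vertical axis, log) by the percent of the tile inside wild-type peaks (horizontal axis), for tiles of the length of each HOX window, with the window itself as a coloured line. HOXA at 45.0% lies beyond every tile (highest 25.5%), as does HOXB at 19.1% (highest 15.5%), and HOXC and HOXD lie within the upper tail.

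The windows also stood above the rest of their own chromosomes. Outside the window, peaks covered 0.651% of chromosome 7, 1.72% of 17, 0.734% of 12 and 0.551% of 2. The windows exceeded these 69.1, 11.1, 24.8 and 27.2 times. Median scores outside were 223, 231, 218 and 240, so that HOXA and HOXB lay above their chromosomes in score and HOXC and HOXD below. For HOXB the excess was small with scores of 100 or more (298 against 295) and after merging (254 against 246). After merging, HOXC (281 against 234) and HOXD (262 against 256) lay above their chromosomes too.

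No peak of the mutant list fell in any HOX window. A count of 0 among 38 mutant peaks allows a share of up to 7.89% (3 counts), which is above the 0.427% seen for wild type, so a difference in share between the lists was not detectable with so few mutant peaks. Chromosomes 7 and 12 had 0 mutant peaks at all. The nearest to HOXB was 10.5 Mb away at 57287236 to 57287455 (score 67.72), and the nearest to HOXD 85.1 Mb away at 91882760 to 91882971 (score 51.88). At HOX clusters the 2 lists therefore differed as 73 peaks against 0. The score of a peak depends on depth, which is unknown, and each construct was in its own line, so DNA binding, protein amount and depth cannot be told apart here.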

How the data were processed

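Peaks came from chromatin immunoprecipitation and sequencing of HEK293T lines. Bowtie 0.12.7, MACS 1.4.1 and hg19 are named in the submitters' processing notes, and the way replicates were joined was not given there. Each list had 5 columns without names. Peak scores were deposited by the authors on a scale the lists do not state, and served to describe and rank peaks within a list. Starts were made 1-based.

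The members, lists and windows were chosen with earlier results of these data known. Named peaks were, per cluster, the 3 highest in score, the widest, the narrowest, the lowest in score, the first, the last, those beside the longest gap, and the nearest mutant peak. Named promoters were the highest and lowest in CG or in its ratio per cluster and those below the threshold, and HOXD13, at the threshold, was named after its value was seen. In sections, steps, sides and tiles a peak was counted by its middle.

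Alternatives were a minimum score of 100, merging within 1 kb, counting by the middle, windows 10 kb shorter or longer at both ends, other flanks, tiles and dividing points, and a CG threshold of 0.75. Medians of the list under the same minimum score and merging were added after the data were seen. Peaks at gene starts were planned and not run, since no hg19 annotation was used. Overlap, cover and merging were tested on simulated peaks. Work was done in Python 3.11.15 with SciPy 1.17.1, pandas 2.3.3, numpy 2.4.6 and matplotlib 3.10.9.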

Additional observations from a re-analysis of the deposited data

How the results depend on the processing

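No paired analysis was possible because wild type and mutant had 1 list each, with no replicate number, and leaving out a replicate was not possible for the same reason. Of 127 alternatives, 118 stayed within 1.5 times the reported value and on its side of 1 where it is a ratio. The exceptions follow. HOXA held 14 peaks after merging within 1 kb. The median score of HOXC was 281 at scores of 100 or more and also after merging. The covered ratio of the 2 sides of HOXA was 0.932 when divided between its first and last peak. With flanks of 50 kb the fold over the flanks was 27.6 for HOXA and 42.8 for HOXC, and at scores of 100 or more it was 102 and 45.8. At scores of 100 or more, 13 tiles were as covered as HOXD. At a CG threshold of 0.75, 63.0% of HOX starts passed, against 37.6% of all promoters. With 1 start per gene, an alternative chosen after seeing the data, 18 of 20 genes (90.0%) passed 0.6. That share has no counterpart over all genes, which were not counted in this way. It also depends on the start kept for HOXA3, which has starts on both sides of 0.6, and counts the start shared by HOXC4 and HOXC5 for each gene. Mutant peaks in the windows remained 0 with 10 kb added at both ends. Peaks at gene starts were not run. Read depth is unknown.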

Other observations

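Pooled HOX peaks scored lower than wild-type peaks in the same width class. This comparison has no test, and widths were compared in this way only once the values were known. Among peaks at least as wide as the upper quartile of the list (1503 bp), the median score was 412 over 44 HOX peaks and 473 over 4279 in the list. Among those between the median and the upper quartile of width it was 130 over 10 HOX peaks, against 295. Between the lower quartile and the median it was 93.8 over 12, against 179. In the narrowest class it was 77.9 over 7 HOX peaks, against 80.8. HOXA alone exceeded the list in the widest class, with a median of 544 over 18 peaks, and HOXB, HOXC and HOXD had 358 over 14, 358 over 7 and 334 over 5. Widths still differed within that class. Their median was 2468 bp in HOXA, 2032 bp in HOXB, 1705 bp in HOXC and 1686 bp in HOXD, against 1838 bp in the list. Pooled over the clusters, the HOX windows were thus marked by the width and closeness of their peaks more than by score. In every cluster more peaks were in the wide class than in the upper quartile of score. In HOXD the median width (1084 bp) was below the list (1116 bp), while those of HOXA, HOXB and HOXC were above it. The HOXA median score (404) also exceeded the list (223). In HOXB 26.1% of peaks had a neighbour less than 1 kb away, against 43.8% pooled and 14.7% of the list. Whether closeness went beyond peak density was not tested.

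At the same length, a few other regions of hg19 were as covered as HOXC or HOXD, and 0 were as covered as HOXA or HOXB. No gene was assigned to these regions. Of the 8 tiles as covered as HOXD, the highest were on chromosome 17 (22.6%) and chromosome X (22.3%). The tile of HOXA length with the most cover was on chromosome X at 39947681 to 40067681, with 14 peaks and 25.5%. The next was on chromosome 1 at 149755075 to 149875075 (9 peaks, 18.9%, median score 708). The 2 tiles as covered as HOXC were on chromosome 17 at 77744705 to 77866705 (10 peaks, 20.5%) and on chromosome 19 at 12832924 to 12954924 (21 peaks, 19.9%). These 2 differ in kind, since the median width was 2444 bp in the first and 1046 bp in the second. HOXA, at 45.0%, combined a median width of 2126 bp with 22 peaks, both counted by their middle.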
